A study of Mus musculus with 7 samples.

Results

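m6A MeRIP-Seq of C2C12 myoblasts gave a list of 5433 peaks, of which 342 carry the class 5′UTR, and these 342 peaks are described here. Every peak with that class was taken, with no threshold on a measured value. They lie in 324 of the 3970 genes on the list (8.16%). The study asked what the methyltransferase METTL3 does in muscle stem cells and during muscle repair. C2C12 is an established mouse line that grows as myoblasts and can be made to form myotubes. It was represented by 1 input library and 2 libraries from immunoprecipitation (IP) with an antibody against m6A. The labels give the genotype of the input as Normal and that of both IP libraries as Knockout, without naming a gene. The study also knocked METTL3 down in C2C12 cells, and whether these libraries came from such cells is not stated. The labels also describe differentiation in horse serum for C2C12 without saying which libraries it applies to. A muscle peak table was used for comparison. It was made from 1 input and 1 IP library of METTL3 cKO mice (Pax7CreERT2; METTL3 flox/flox, tamoxifen-induced, C57BL/6) and 1 of each from tamoxifen-treated CTL mice (Pax7CreERT2; METTL3 wt/wt), all at day 2 after CTX injury, with no age given. Its libraries are labelled as muscle stem cells with muscle as the source. In that model Cre acts in Pax7-expressing cells, and the other cells of the muscle keep the gene.

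m6A is the most common internal methyl mark of mRNA and is placed by a complex with METTL3 and METTL14, mostly in long exons and around stop codons. In the 5′UTR, m6A has been linked to translation that does not depend on the cap-binding complex, with heat shock mRNAs as the classic case. Antibodies against m6A also bind m6Am, a related base next to the cap that is made by PCIF1, so a peak at the very start of a transcript can hold either mark.

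The C2C12 list gives a position, a transcript and a distance to the transcription start site (TSS) for each peak. It gives no peak height, no fold enrichment and no value for a single library, so no replicate error could be computed and no test was made. Depth is unknown. Shares are given with 95% Wilson intervals and medians with 95% intervals from the binomial distribution of ranks, which cover counting error only. Peaks of 1 list are not replicates. As a check of the cell type, the myoblast genes Myod1, Des and Cdh15 had peaks, while Myf5, Myog, Mef2c, Itga7, Vcam1 and Ncam1 had none. Pax7 of muscle stem cells had 1 peak in its 3′UTR. The macrophage genes Ptprc, Adgre1 and Csf1r and the endothelial genes Pecam1 and Cdh5 had none. Of the fibroblast genes, Pdgfra and Col1a1 had 1 peak each and Thy1 had none. A peak list shows neither expression nor its absence.

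The 342 peaks were concentrated at the start of the transcript. The distance from the TSS to the centre of the peak had a median of 217.5 bp (129 to 340), with quartiles of 55 and 1837 bp. The span of the peak covered the TSS in 153 of 342 (44.7%, 39.6 to 50). The same was true of 32 of 2860 Exon/CD peaks (1.12%), 1 of 1405 3′UTR peaks and 2 of 675 intron peaks. It was also true of 30 of 107 Upstream peaks (28.0%, 20.4 to 37.2) and 1 of 44 Downstream peaks. These differences follow in part from what the classes mean. Distances are genomic and include introns, so a peak far from the TSS may lie in a later exon of the leader. Exon structure was not analysed here.

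The class held both coding and noncoding transcripts. Of the 342 peaks, 283 lie on transcripts that RefSeq numbers as mRNA (NM) and 59 on transcripts numbered as noncoding (NR), which have no untranslated leader in the usual sense. All 59 NR peaks were on the plus strand. By contrast, all 47 NR peaks classed 3′UTR were on the minus strand, and no NR peak was classed Exon/CD. The NM peaks of the 5′UTR class were spread over both strands, with 143 on plus and 140 on minus. The origin of this split was not tested, and positions are therefore given for both kinds of transcript. NM peaks lay near the start, with a median distance of 114 bp (91 to 178), and 147 of 283 covered the TSS (51.9%, 46.1 to 57.7). NR peaks lay far from it, with a median distance of 5336 bp (3059 to 7503), and 6 of 59 covered the TSS (10.2%, 4.74 to 20.5).

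Among the NM peaks, 77 of 283 had their centre within 50 bp of the TSS and a further 58 lay between 50 and 100 bp. At the other end, 59 of 283 (20.8%, 16.5 to 26.0) lay more than 1000 bp away. The 147 NM peaks that covered the TSS began a median of 66 bases before it, at most 167 bases for Lmf2, and ended a median of 162 bases after it. They had a median length of 218 bp. The 136 NM peaks that did not cover it had a median length of 265.5 bp.

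Peaks of the 5′UTR class were short. The median length was 239 bp (231 to 248), with quartiles of 210.25 and 298.75 bp. Exon/CD peaks had a median of 304 bp (298 to 311) and 3′UTR peaks one of 290 bp (284 to 300). Intron peaks were close to those of the 5′UTR, at 232 bp (227 to 238). The shortest length on the whole list, 199 bp, was shared by 35 of the 342 peaks, among them those of Arhgap11a, Hnrnpc and Hnrnpk. It was also the lowest length in each of the other classes.

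The 5 longest peaks ranged from 731 to 1457 bp. The longest lay on Rn45s, the precursor of ribosomal RNA and not an mRNA, at 1457 bp. Jun, a subunit of the AP-1 transcription factor, had the second longest, with 1346 bp from 22 bases before the TSS to 1324 bases after it. The list places it on chromosome 4 from 94717589 to 94718935. Hexim1, an inhibitor of the elongation factor P-TEFb, had a peak of 1167 bp from 73 bases before the TSS to 1094 bases after it. Agpat6, an enzyme of glycerolipid synthesis, had one of 890 bp, and Lurap1l had one of 731 bp. Jun and Hexim1 are single-exon genes, so in them distance along the genome is distance along the transcript. Of the 342 peaks, 22 were longer than 500 bp.

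Stress and protein folding genes were among the members. Of the 19 genes of the fixed list for heat shock and the integrated stress response that had any C2C12 peak, 5 had a 5′UTR peak (26.3%, 11.8 to 48.8), beside the 8.16% of all genes on the list. Hspa1a, a stress-inducible Hsp70, had a peak of 258 bp centred 52 bp from the TSS. Its neighbour Hspa1b had one of 250 bp centred 48 bp from the TSS. Both peaks began 77 bases before the TSS, and these genes are near-identical copies, for which the assignment of reads is not given. They count as separate genes in the share above. Hspa5, the Hsp70 of the endoplasmic reticulum, had a peak of 199 bp centred 97 bp from the TSS. Dnajb1, an Hsp40 co-chaperone, had its peak from 22 to 251 bases after the TSS. Atf4, the transcription factor of the integrated stress response, whose own translation is set by upstream open reading frames, had a peak of 200 bp that ran from 251 to 451 bases after the TSS. Hsp90aa1, Hsp90ab1, Ddit3, Ddit4, Atf5 and Xbp1 were on the list without a 5′UTR peak.

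Families called added were put together after the members had been seen and do not hold every gene of their kind, so no share is given for them. Each also held listed genes whose peaks were all of other classes. Of all 342 peaks, 44.7% covered the TSS, and of the 283 NM peaks 51.9%. Nothing is read from the counts of these families or from how many of their peaks covered the TSS. The added family of chaperones held 9 genes with a 5′UTR peak, and 7 of these 9 peaks covered the TSS. Hspa1a, Hspa1b, Hspa5 and Dnajb1 of the fixed stress list are among these 9 genes. Dnajc15, a J-domain protein of mitochondria, had a peak centred 6 bp from the TSS. Cct6a, a subunit of the cytosolic chaperonin, had one centred at 44 bp. Calr encodes calreticulin, a chaperone of the endoplasmic reticulum, and its peak was centred at 86 bp. The small heat shock genes Hspb1 and Cryab differed in position, with centres 95 and 429 bp from the TSS.

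In the fixed list of splicing and RNA-binding families, 7 of 49 genes had a 5′UTR peak (14.3%, 7.10 to 26.7), an interval that holds the 8.16% of all genes, and 5 of these 7 peaks covered the TSS. The added family of heterogeneous nuclear ribonucleoproteins (hnRNPs) and splicing factors of the SR kind held 6 genes with one. All but Tra2b are also in the fixed list. All 6 peaks covered the TSS, beside 51.9% of the 283 NM peaks. Nothing is read from this, as the family was picked after the members were seen. Their centres lay from 1 to 49 bp away, and the median length of the 6 peaks was 203.5 bp. Hnrnpa0, Hnrnpf, Hnrnph2, Hnrnpm, Hnrnpr, Hnrnpu, Hnrnpul1, Srsf11 and Srsf4, also of this family, had peaks of other classes. Exon/CD peaks of Hnrnpm and Hnrnpul1 also covered the TSS. Hnrnpk, which binds C-rich RNA, had its centre 1 bp from the TSS. Srsf7, an SR splicing factor, had its centre 11 bp away. Hnrnpc, which binds U-rich tracts, had its centre at 14 bp, Tra2b at 38 bp, Hnrnpab at 39 bp and Hnrnpa2b1 at 49 bp. The other peaks of the fixed list lay farther away. Ddx6, a helicase of P-bodies, had a peak centred 2350 bp from the TSS, and Mbnl2, a splicing regulator of the muscleblind family, one at 49380 bp.

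The fixed list for translation took genes by the start of their symbol and so also holds kinases such as Rps6kb1 and Eif2ak3. Of its 50 genes, 2 had a 5′UTR peak (4.0%, 1.10 to 13.5), beside 8.16% of all genes. Eif1, which helps the ribosome choose the start codon, had a peak of 213 bp centred 9 bp from the TSS. Eif6, which keeps the large ribosomal subunit from joining early, had its peak from 148 to 404 bases after the TSS. None of the ribosomal protein genes on the list, such as Rpl11, Rps6 and Rplp0, had a peak of this class. A peak of Rplp1 classed Upstream covered the TSS. Further genes were picked after their values were seen. Ybx1, a cold shock protein that packages mRNA, had a peak from 85 bases before the TSS to 183 bases after it. Pabpc1 encodes the cytoplasmic poly(A)-binding protein, and its peak ran from 115 to 379 bases after the TSS. Caprin1, a stress granule protein, had a peak centred 47 bp from the TSS.

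Of the 25 listed writers, readers and erasers of m6A, 15 had a C2C12 peak and 2 had one in the 5′UTR (13.3%, 3.74 to 37.9), an interval that holds the 8.16% of all genes. These were Hnrnpa2b1 and Hnrnpc, both proposed to read m6A in the nucleus. Wtap, Zc3h13, Rbm15, Rbm15b, Cbll1, Mettl16, Pcif1, Fto, Alkbh5, Ythdf1, Ythdf2, Ythdf3 and Eif3a had peaks of other classes.

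Of the fixed list of myogenic and satellite cell regulators, 10 genes had a C2C12 peak and 1 had a 5′UTR peak (10%, 1.79 to 40.4). That gene was Myod1, which directs cells into the muscle lineage. Its peak of 374 bp ran from 43 bases before the TSS to 331 bases after it, and it was the one peak the list gives for Myod1. Among Notch components and targets, 0 of 12 genes had a 5′UTR peak, which allows a share of up to 24.2%. Jag1, Notch2, Rbpj and Maml1 were among these 12. The fixed list of cell cycle and p53 genes gave 0 of 10, with an upper bound of 27.8%. The intervals of these lists all hold the 8.16% of all genes, so nothing is read from their shares. Some cell cycle genes outside that list, picked after their values were seen, had a 5′UTR peak over the TSS. They do not form a complete set, so no share is given. Among them was Pcna, the sliding clamp of DNA replication, with its centre at 39 bp. Cdc20, an activator of the anaphase-promoting complex, had its centre at 63 bp, and Cks2, a small partner of cyclin-dependent kinases, at 99 bp.

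Of the immediate-early transcription factors, 2 of 18 had a 5′UTR peak (11.1%, 3.10 to 32.8, beside 8.16% of all genes), and both encode Jun proteins. The peak of Jun is described above. Jund had a peak of 375 bp that ran from 1099 to 1474 bases after the TSS. Fosl2, Junb, Atf3, Egr1 to Egr3, Myc and the listed Klf genes had peaks of other classes.

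The added family of the respiratory chain and ATP synthase held 7 genes with a 5′UTR peak. Of these 7 peaks, 6 covered the TSS, beside 51.9% of the 283 NM peaks. Nothing is read from this, as the family was picked after the members were seen. Atp5g3, Cox6a1, Ndufa8, Ndufb4, Ndufs3, Sdhc and Uqcrb, also of this family, had peaks of other classes. Peaks of Ndufb4 and Ndufs3, classed Exon/CD, and of Ndufa8, classed Upstream, also covered the TSS. Atp5b, the catalytic beta subunit of ATP synthase, had its centre 8 bp from the TSS. The complex I subunits Ndufs6 and Ndufb7 had theirs at 22 and 26 bp. Ndufc2, also of complex I, was the one whose peak began after the TSS, by 13 bases. Cox7c and Cox8a, subunits of cytochrome c oxidase, had centres at 34 and 80 bp. The median length of the 7 peaks was 206 bp.

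The added proteasome family held 4 genes with a 5′UTR peak, and all 4 peaks covered the TSS. The share was 44.7% of all 342 peaks and 51.9% of the 283 NM peaks. Nothing is read from this, as the family was picked after the members were seen. The median length of the 4 peaks was 241 bp. Psma4, Psmb3, Psmb4, Psmb5, Psmc1 and Psmd4, also of this family, had peaks of other classes. Exon/CD peaks of Psmb4 and Psmb5 also covered the TSS. Psma6 and Psmb2, subunits of the core particle, had centres 31 and 33 bp from the TSS. Psme3, an activator subunit, had its centre at 39 bp. Psmd2, of the regulatory particle, had its centre at 111 bp on a transcript numbered as noncoding.

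The added family of high mobility group and related chromatin genes held 5 genes with a 5′UTR peak, of which 4 peaks covered the TSS. Hmgb1, an abundant DNA-bending protein, had a peak centred 11 bp from the TSS. Ptma encodes prothymosin alpha, and its peak was centred at 29 bp. Hmgn2 and Hmgn1, which bind nucleosomes, had centres at 57 and 91 bp. H1f0, a linker histone, had its centre at 461 bp. The fixed list of chromatin modifiers and remodellers gave 1 gene of 26 (3.85%, 0.682 to 18.9, beside 8.16% of all genes). This was Brd2, a BET protein that reads acetylated histones, with 2 peaks centred 2916 and 3677 bp from the TSS.

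The added family of tropomyosins, actinins and other actin-binding proteins held 12 genes with a 5′UTR peak, and 8 of the 12 peaks covered the TSS. Myh9, the heavy chain of nonmuscle myosin IIA, had its centre 7 bp from the TSS. Vcl encodes vinculin, which ties actin to adhesion sites, and had its centre at 14 bp. Among the tropomyosins, which lie along the actin filament, Tpm1 had its centre at 12 bp, Tpm4 at 19 bp and Tpm2 at 121 bp. Actn4 and Actn1, which crosslink actin, had centres at 42 and 194 bp. Flnc, a filamin of muscle cells, had its peak from 71 to 301 bases after the TSS. Flna, Tln1, Tln2, Tpm3, Cfl1 and Zyx, also of this family, had peaks of other classes.

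Kif3c, a kinesin, had its peak from 538 to 1061 bases after the TSS. Peaks right at the TSS were listed for Arhgap11a, with its centre 32 bp away, and for Arhgef17, with its centre at 39 bp.

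Adhesion and matrix genes were mixed in position. Among the integrins, an added family, 3 genes had a 5′UTR peak, with centres at 45 bp for Itgb5, 137 bp for Itga3 and 152 bp for Itgb1. Of collagens and other matrix genes, also added, 7 had one, and 6 of the 7 peaks covered the TSS, beside 51.9% of the 283 NM peaks. Nothing is read from this, as the family was picked after the members were seen. Col1a1, Col3a1, Fbn1, Fn1 and Sparc were among the matrix genes with peaks of other classes only. Col1a2, a chain of type I collagen, had its centre at 15 bp, and Col4a2, of the basement membrane, at 20 bp. Nid1, the basement membrane linker nidogen, had its centre at 49 bp. Lox, which crosslinks collagen, had its centre at 88 bp. Spp1, the secreted phosphoprotein osteopontin, was the exception, with a peak that ran from 1086 to 1448 bases after the TSS.

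In the added family of ephrins, their receptors and neuropilins, Efnb1, Efnb2, Ephb3 and Nrp2 had a 5′UTR peak. Ephb3, a receptor for ephrin B ligands, had its centre 30 bp from the TSS. Efnb1, such a ligand, had a peak of 486 bp that began 48 bases before the TSS. The other 3 of the 5 peaks of these genes began after the TSS, at base 6 for Efnb2 and at bases 14 and 616 for Nrp2. In the added family of protocadherins, Pcdh7 and Pcdh19 had a 5′UTR peak, with all 3 peaks beyond the TSS.

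Signalling genes followed no single pattern. In TGF-beta and BMP signalling, 3 of 17 genes had a 5′UTR peak (17.6%, 6.19 to 41.0). The ligand gene Tgfb3 had a peak of 475 bp that covered the TSS, and Tgfb1 had one of 504 bp that began 137 bases after it. Smad4, the shared signal transducer of the pathway, had its peak 25823 bp from the TSS. In growth factor and PI3K-mTOR signalling, 3 of 15 genes had one (20%, 7.05 to 45.2). Both intervals hold the 8.16% of all genes. Fgfr1, a receptor of fibroblast growth factors, had its centre at 129 bp. Irs1, the docking protein of the insulin receptor, had its peak from 380 to 699 bases after the TSS. Pik3r1, the regulatory subunit of PI3K, had its centre at 10414 bp.

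In the Wnt and Hippo list, 4 of 17 genes had a 5′UTR peak (23.5%, 9.56 to 47.3), beside 8.16% of all genes. Cyr61, a matrix-associated target of YAP, had its centre 29 bp from the TSS. Ctnnb1, which encodes beta-catenin, had its centre at 98 bp. Fzd7, a Wnt receptor, had a peak of 442 bp from 17 to 459 bases after the TSS. Lats2, a kinase of the Hippo pathway, had its peak 11880 bp from the TSS. Yap1, Tead4, Apc and Axin1 had peaks of other classes.

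Other large fixed lists, also drawn up by the start of the symbol, had shares close to or below that of all genes. Solute carriers gave 7 of 67 (10.4%, 5.15 to 20), of which Slc6a8, the creatine transporter, was the one with a peak over the TSS. Slc1a5 had its centre at 440 bp and Slc35e4 at 1068 bp, while Slc25a51, Slc45a4 and Slc20a2 had theirs at 8606, 18737 and 58371 bp. Zinc finger genes gave 5 of 136 (3.68%, 1.58 to 8.32), none with a peak over the TSS. Zfp319 was nearest to the TSS at 2371 bp, followed, by their nearest peaks, by Zfp862, Zfp260, Zfp664 and Zfp326, the last at 38242 bp. Ubiquitin ligases and deubiquitinases gave 2 of 101 (1.98%, 0.545 to 6.93), namely Ube2k with its centre at 67 bp and Trim8 at 781 bp. MAP kinases and dual-specificity phosphatases gave 1 of 24 (4.17%, 0.739 to 20.2), Map3k11 with its centre at 700 bp.

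Of the 324 genes, 15 had more than 1 peak of the class, with 33 peaks in all, and the other 309 had 1. Of the 15 genes, 7 were on NM transcripts and 8 on NR transcripts. On NM transcripts the pairs were close together. The peaks of Zdhhc5, a palmitoyltransferase, lay 82 bp apart, and those of Pcdh7, a protocadherin, 109 bp apart. Ankrd50 had a gap of 188 bp and Nrp2, a receptor for semaphorins and VEGF, one of 252 bp. Brd2 and Snx33, a sorting nexin, had gaps of 449 and 562 bp. The gap of 6030419C18Rik, whose current name is Insyn1, was 1146 bp, with 1 peak over the TSS and the other centred 1552 bp from it. Whether neighbouring peaks of this kind belong to 1 methylated stretch was not tested.

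On NR transcripts, Zfp862 had 4 peaks, centred between 7503 and 28065 bp from the TSS, and RefSeq now lists this gene as a transcribed pseudogene. The transcribed pseudogene 5830417I10Rik had 3, of which the nearest covered the TSS and the farthest was centred at 44374 bp. Fth1, which encodes the heavy chain of ferritin, had 2 on a noncoding transcript, centred at 2158 and 4231 bp. Rreb1, a zinc finger transcription factor, had 2 that were 1693 bp apart, and Arid5a had 2 that were 652 bp apart. The noncoding 1700020I14Rik and 4632415L05Rik had gaps of 334 and 197 bp. Gm5512, a transcribed pseudogene, was listed on chromosomes 10 and 19, so no gap was computed for it. By the RefSeq annotation, 23 of the 59 NR peaks lie in transcribed pseudogenes, 18 in protein-coding genes with a noncoding transcript, 9 in long noncoding RNAs, 2 in antisense RNAs (Tsix and Peg3as) and 1 in the microRNA gene Mir671, and 6 were not matched.

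The 5 peaks farthest from the TSS included 3 on mRNAs. Hivep2, a zinc finger transcription factor, had its peak at 161077 bp, and Ldlrad4, an inhibitor of TGF-beta signalling, at 131243 bp. Sipa1l3 had one at 104521 bp. The remaining 2 were those of Rreb1, at 120219 and 122145 bp. Whether these leaders hold exons at such distances was not tested.

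A 5′UTR peak was often not the gene's single peak. Of the 324 genes, 144 had a peak of another class (44.4%, 39.1 to 49.9), and 171 had 1 peak in all (52.8%, 47.3 to 58.1). Of the 3646 genes without a 5′UTR peak, 2776 had 1 peak in all (76.1%, 74.7 to 77.5). Since a gene with more peaks has more chances to have one in the 5′UTR, this difference is in part built in. The other peaks lay in Exon/CD for 92 genes (28.4%, 23.8 to 33.5), in the 3′UTR for 47 (14.5%) and in introns for 35 (10.8%). For 15 genes both Exon/CD and 3′UTR peaks were listed beside that of the 5′UTR, among them Irs1, Sox4, Fzd7, Lox, Dnajb1 and Cyr61.

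The other peaks were also counted by position of the 5′UTR peak on NM transcripts, a split made after the data were seen. A peak of any other class was listed for 68 of 147 genes whose peak covered the TSS (46.3%, 38.4 to 54.3) and for 73 of 130 with a peak that did not cover it (56.2%, 47.6 to 64.4), where 6030419C18Rik, with a peak of each kind, counts in both. Of the 147, 38 had an Exon/CD peak (25.9%, 19.5 to 33.5). Of the 130, 55 had one (42.3%, 34.2 to 50.9). For 3′UTR peaks the shares were 13.6% (8.98 to 20.1) and 20% (14.0 to 27.7), and for intron peaks 15.0% (10.1 to 21.6) and 7.69% (4.23 to 13.6). The intervals overlap for each of these but Exon/CD, and the difference was not tested. Of 48 genes with an NR peak, 4 had a peak of another class (8.33%, 3.29 to 19.6), a share not comparable with those above, as no NR peak of the list was classed Exon/CD. Expression of the genes, on which the number of peaks called depends, is not given in the list.

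The genes with the most peaks are described next. Myh9 had 8 peaks, with 1 over the TSS, 5 in introns and 2 in Exon/CD. Ankrd50 had 7, with 2 in the 5′UTR, 4 in introns and 1 in Exon/CD. Irs1 had 5, of which the Exon/CD peak centred 4080 bp from the TSS was the longest, at 986 bp. Arhgef17 also had 5, with 3 in Exon/CD and 1 in the 3′UTR. Jph2, which joins the plasma membrane to the sarcoplasmic reticulum in muscle, had 5, and its 5′UTR peak of 700 bp was the longest of them. Pcdh7 had 5 within 3396 bases of the TSS. Genes with 4 peaks included Hspa1a, with 3 Exon/CD peaks after that of the leader, and the tubulin gene Tubb4b. They also included the transcription factors Nfe2l1 and Sox4, the heparan sulfate polymerase Ext1, and Itpripl2, Snx33, Rreb1 and Zfp862. The antisense transcript of Xist, Tsix, had 1 peak classed 5′UTR of 587 bp and 3 classed as intron.

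The members were then set beside muscle at day 2 after injury by gene name, because the positions of the 2 lists could not be joined. The muscle table holds peaks that the authors called as different between the genotypes, so a gene that is missing from it may still be methylated in muscle. Of the 324 genes, 133 were in the muscle table (41.0%, 35.8 to 46.5), close to the 40.7% of all C2C12 genes. Their 180 muscle peaks were classed as 3′UTR in 70 cases (38.9%), as CDS in 54 (30%), as exon in 31 (17.2%) and as 5′UTR in 25 (13.9%, 9.59 to 19.7). In the whole muscle table of 5412 peaks the shares were 48.0% for 3′UTR, 31.9% for CDS and 14.9% for exon, and 278 peaks were classed 5′UTR (5.14%, 4.58 to 5.76).

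A 5′UTR peak in both lists was found for 25 genes. They are 7.72% of the 324 C2C12 genes (5.28 to 11.1) and 9.06% of the 276 muscle genes with a 5′UTR peak (6.21 to 13). Of the 3646 C2C12 genes without a 5′UTR peak, 89 had one in muscle (2.44%, 1.99 to 2.99). The part of expression and leader length in this difference was not tested. The fold enrichment of IP over input that the authors deposited for the 25 muscle peaks ran from 1.49 for Flnc to 438 for Abl1, with a median of 18.3. For all 278 muscle 5′UTR peaks, which include these 25, the median was 9.535. No interval was computed for either median, and the difference was not tested.

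For 17 of the 25 genes the RefSeq starts used here held a single TSS, so that both peaks could be placed relative to it. The other 8 genes had several starts or none given. The TSS of the C2C12 list and that of GRCm38 were taken as the same point. The peaks overlapped in 13 of these 17 genes. Fbf1, a centriole protein of primary cilia, had a muscle fold enrichment of 254. Its C2C12 peak ran from 44 bases before the TSS to 567 bases after it and its muscle peak from 12 to 671 bases after it, with 555 bases in common. Dgcr8, which cuts microRNA precursors together with Drosha, had a muscle fold enrichment of 142, and its C2C12 peak of 199 bp lay wholly inside the muscle peak of 1094 bp, which ran from 4013 to 5107 bases after the TSS. Slc35e4 had a fold enrichment of 74.4, with all 686 bases of its C2C12 peak inside that of muscle. Hivep2 had one of 66.5, and its C2C12 peak 161077 bp from the TSS lay inside a muscle peak of 1786 bp. The distant peak of Hivep2 was thus placed in the same stretch in both lists.

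Further shared genes could not be placed or did not overlap. Abl1, a tyrosine kinase, had the highest muscle fold enrichment of the 25, at 438, and 8 GGAC sites in its muscle peak of 2111 bp. Its C2C12 peak of 250 bp was centred 1067 bp from the TSS. 4931406P16Rik had a muscle fold enrichment of 122, Zfyve1 one of 112 and Brd2 one of 50, the last with 11 GGAC sites in a peak of 3453 bp. Arl6ip5, a membrane protein of the endoplasmic reticulum, had a fold enrichment of 36.6, and its C2C12 peak covered the TSS. For Nat6, an acetyltransferase of actin, the fold enrichment was 27.6, and its muscle peak began 970 bases before the matched TSS and did not overlap its C2C12 peak. At least 1 GGAC site was listed in the muscle peak of 20 of the 25 genes (80%, 60.9 to 91.1), beside 191 of all 278 muscle 5′UTR peaks (68.7%, 63.0 to 73.9), and the intervals overlap.

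The C2C12 list gives no sequence under its peaks, and only 19 of the 335 peaks with a matched gene (5.67%) lie inside that gene on GRCm38, although the processing notes name mm10. Sequence was therefore taken from the gene's start in RefSeq (GRCm38.p6). The first 50 transcribed bases were read on the sense strand for the 199 of 317 matched genes with a single TSS. A start sequence was at hand for 247 genes, so the genes left out had either several starts or none given. The motif searched was GGAC, the core of the commonest m6A site. It was present in 44 of 199 (22.1%, 16.9 to 28.4), beside 20.0% of 14730 protein-coding genes read in the same way and 19.8% of the 2445 genes of the C2C12 list. Where the peak covered the TSS, it was present in 28 of 112 (25%, 17.9 to 33.8). These shares are close to those of all genes, and nothing is read from them about the members.

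The wider DRACH motif (D for A, G or T, R for A or G, H for A, C or T), which includes GGACT, was present in 90 of 199 (45.2%, 38.5 to 52.2), in 39.3% of the C2C12 genes and in 51.7% of protein-coding genes. The first transcribed base, which can carry m6Am where it is an A, was an A in 32 of 112 genes whose peak covered the TSS (28.6%, 21.0 to 37.5). It was an A in 26.3% of the C2C12 genes and in 39.4% of protein-coding genes. RefSeq gives 1 start where cells may use several, so the first base in C2C12 cells may differ.

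For 8 genes the peak reached the first 50 bases and these hold GGACT, where only genes with a single TSS were read. GGACT was present in 8 of 112 such genes whose peak covered the TSS (7.14%, 3.66 to 13.5). It was present in 4.50% of the C2C12 genes and in 5.99% of protein-coding genes, so nothing is read from this count. For each of the 8 genes, 30 bases around the GGACT site are shown, 5′ to 3′ on the sense strand with GGAC in capitals. The letters at these starts can thus be read beside the peaks. All 8 sites lie within the span of the C2C12 peak, counted from the TSS and with the TSS of both builds taken as the same point. This follows from the choice of genes. All 8 peaks begin before the TSS and end at least 100 bases after it, so a site in the first 50 bases had to fall inside. In Jun the site begins at base 21 of the transcript, in Vcl at base 21, in Nid1 at base 14 and in Fbf1 at base 27. Those of 6030419C18Rik and Golim4, a Golgi protein, begin at base 1. Hnrnpk has it at base 44, and Ftl1, the light chain of ferritin, at base 42. The sequences are from RefSeq, GRCm38.p6, and a match is a string of letters and not a measured site.
Jun, chr4:95052186-95052215, minus strand: tcaggctggataaGGACtcagagttgcact
Vcl, chr14:20929405-20929434, plus strand: ccgagggaagcccGGACtctagtcgccgct
Nid1, chr13:13437602-13437631, plus strand: gggaggtgaggagGGACtgcggaggggcgt
Fbf1, chr11:116168136-116168165, minus strand: aggctgcgaggtgGGACtgtcgccggcgga
Hnrnpk, chr13:58402068-58402097, minus strand: cggcgcggccgggaggcaacggcGGACtcg
Ftl1, chr7:45459837-45459866, minus strand: aaaaggagcgctccttgcccgGGACttaga
Golim4, chr3:75956920-75956949, minus strand: GGACttcctcccggaatcccgttggccatg
6030419C18Rik, chr9:58488603-58488632, plus strand: GGACtttccccaccgttgatggagccgact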

How the data were processed

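m6A MeRIP-Seq peaks of C2C12 cells (1 input and 2 IP libraries) and of day 2 muscle (1 input and 1 IP library of METTL3 cKO and of CTL mice) were analysed as the authors deposited them, as 1 pooled list each. The submitters' processing notes name TopHat, MACS2 and mm10, without roles. The C2C12 positions and distances were deposited in bp. For muscle, the authors deposited a fold enrichment for each peak (a ratio of IP to input) and the number of GGAC sites. The authors' log2 fold and FDR between genotypes, and peak p-values, were not used. The number of unused per-sample columns is 0, as no table has any. The tables hold no counts, so depth is unknown.

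Members were peaks of the 5′UTR class. Distances refer to the peak centre, since 1021 of 1021 transcripts with several peaks then gave 1 TSS within 2 bp. Peak ends were placed from the distance, and length is end minus start. Genes were matched to RefSeq (GRCm38.p6) by transcript, for 335 of 342 peaks, and to muscle by symbol or a single older symbol. Sequence windows hold 250 bases before and 50 after the TSS. No test was made, since peaks are not replicates. The scripts ran under Python 3.11.15 with scipy 1.17.1, numpy 2.4.6 and pandas 2.3.3, and were tested on simulated data.

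Genes were named by rule: those with at least 2 peaks of the class, the 5 longest and 3 shortest peaks (35 tied, of which 3 are named), the 5 farthest, members of fixed lists (a few of these, and 2 lists, are left out of the text), the 10 shared genes with the highest muscle fold enrichment, genes with at least 4 peaks, and up to 12 starts holding GGACT. Members and lists were chosen with earlier results of these data known, and other genes and families after the members were seen.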

Additional observations from a re-analysis of the deposited data

How the results depend on the processing

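Of 22 alternatives, 11 were labelled the same and 11 moved, where the same means within 1.5 times for a count and inside the 95% interval of the main value for a share or median. Counting genes gave 324, peaks of any class within 100 bp of the TSS gave 284, and NM transcripts gave 283 members, and the median length was 234 to 238 bp in its alternatives, beside 239 bp. By exact symbol, 39.8% of genes were in the muscle table, and on NM transcripts 46.0%, beside 41.0%. Restriction to NM transcripts, chosen after seeing the data, moved the share covering the TSS from 44.7% to 51.9%, the median distance from 217.5 to 114 bp, and the share of genes with another class of peak from 44.4% to 50.7%. The share at the TSS was 50.6% with a tolerance of 50 bp and 53.5% with 100 bp. The median distance was 87 bp for peaks under 1000 bp. Without intron peaks, 38.3% of genes had another class of peak. The share of genes in the muscle table was 24.1% for the more enriched muscle peaks (median fold enrichment or higher) and 7.72% for 5′UTR peaks. The sequence share was 45.2% for DRACH and 68.3% for GGAC in all 300 bases. The alternatives with fewer or wider criteria differ by construction. The use of any TSS of a gene, also chosen after seeing the data, gave 23.9%.

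Reading the listed distance as that of the peak end nearest to the TSS was not run, because the listed distances fit the peak centre in 1021 of 1021 transcripts with several peaks. No paired analysis was possible because the tables hold no values per library, and for the same reason leaving out an IP library was not possible. Depth, expression and peak height are unknown for C2C12, so a gene without methylation and a gene with too few reads cannot be told apart.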

Other observations

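The 5′UTR class does not hold every C2C12 peak at a TSS. Of 219 peaks whose span covered the TSS, 153 were classed 5′UTR (69.9%, 63.5 to 75.6), 32 Exon/CD and 30 Upstream. The Exon/CD peaks over the TSS included those of the intermediate filament genes Vim and Des, with lengths of 652 and 510 bp, of the respiratory chain genes Ndufb4 and Ndufs3 and of the proteasome genes Psmb4 and Psmb5. Those classed Upstream included Rplp1, with its centre 1 bp before the TSS, and Magoh, a subunit of the exon junction complex. These genes were chosen after their values were seen.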
